A study of Cynara cardunculus with 36 samples.

Results

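The second week of cold storage of Green Queen (GQ) artichoke hearts was examined by comparing RNA of hearts stored for 14 days with RNA of hearts stored for 7 days. The comparison used 3 libraries a side, chosen by cultivar and day from the sample titles, or 6 of the 36 libraries of the study. The study sequenced RNA from hearts of globe artichoke (Cynara cardunculus var. scolymus) of 4 cultivars, GQ, Opal (OP), Imperial Star (IS) and Green Globe Improved (GGI), at days 0, 7 and 14, to look for genes involved in the rapid ageing of the harvested head. All plants, those of day 0 included, were field-grown with gibberellic acid (GA) to bring on flowering early, and all heads had spent 48 h at 4 °C before day 0. The labels call the replicates biological and do not say whether a library holds 1 head or several, or whether heads of different days came from the same plants. Library names ran in blocks by day, so that any effect of library order cannot be told apart from storage.

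The artichoke head is an immature flower head, and its heart is the fleshy base with the innermost bracts. After cutting, it goes on respiring without a supply of water or sugar from the plant. Its tissue is rich in caffeoylquinic acids such as chlorogenic acid, which polyphenol oxidases and peroxidases turn into brown pigments once cells lose their compartments, and cold storage slows but does not stop this. The files give an ID and no name for each gene model, and 0 of the 28632 IDs matched the RefSeq gene table of this species, so no browning enzyme, hormone or senescence gene could be looked up. Gene models are therefore described by ID, and no sequence is shown.

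The GQ libraries held 29.7 to 53.2 M reads in gene models (M is the unit of counts per M reads, CPM). Of the 6, the day 7 libraries differed most in make-up. Reads outside gene models made up 14.5% of the reads listed in day 7 replicate 1, 31.6% in replicate 2 and 30.1% in replicate 3, against 9.45% to 10.3% in the day 14 libraries and 9.39% to 16.0% in 32 of the 36 libraries. Gene models with 0 reads numbered 7262 in day 7 replicate 1, 9445 in replicate 2 and 10102 in replicate 3, and 6721 to 7278 at day 14. The 100 most abundant gene models took 17.4% of the gene reads in day 7 replicate 1, 30.0% in replicate 2 and 32.0% in replicate 3. They took 24.4%, 19.9% and 25.4% in day 14 replicates 1, 2 and 3, and 15.4% to 16.3% at day 0. Replicates 2 and 3 of day 7 were the highest in all 3 measures and the shallowest of the 6, at 31.7 and 29.7 M reads, and the counts are given with and without them.

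**Figure D1:**
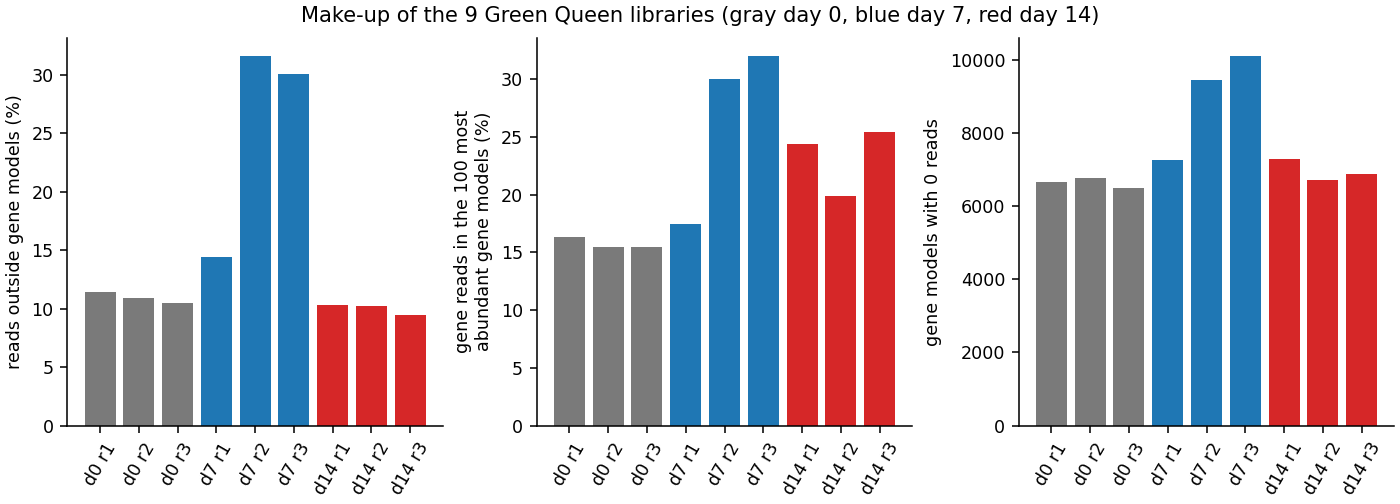
Share of listed reads outside gene models (left), share of gene reads in the 100 most abundant gene models of that library (middle) and number of gene models with 0 reads (right), one bar per GQ library. Day 7 replicates 2 and 3 are the highest bars in each panel, at 31.6% and 30.1% outside gene models.

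One day 14 library went against its label. The day 0 libraries gave 99 markers, gene models over 1 CPM (on) throughout one of GQ and GGI and under 0.1 CPM (off) throughout the other, 56 on in GQ and 43 on in GGI. Read as on above 0.316 CPM, 71 of the 99 showed the state of GGI in the library with the label GQ day 14 replicate 1, against 6 in day 14 replicate 2 and 9 in replicate 3. The library labelled GGI day 14 replicate 1 had 8 of 99 in the GGI state, while the other GGI libraries of days 7 and 14 had 67 to 78. At day 7, 6 of 99 were in the GGI state in GQ replicate 1, 20 in replicate 2 and 23 in replicate 3. A marker on in GQ at day 0 also counts as in the GGI state once it is below 0.316 CPM. The counts were not split by kind of marker. Whether the libraries labelled GQ day 14 replicate 1 and GGI day 14 replicate 1 were exchanged was not tested. If they were, the day 14 means of GQ and GGI would each hold a library of the other cultivar. All libraries were kept under their labels, and the counts are also given without the library labelled GQ day 14 replicate 1.

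Day 7 replicates differed from each other more than replicates of the other days. Over log2 CPM of the 21900 gene models tested, the correlation between day 7 libraries was 0.862 to 0.909, against 0.922 to 0.948 at day 14 and 0.960 to 0.982 at day 0; these are descriptions across gene models. Day 7 replicate 1 correlated with the day 0 libraries at 0.937 to 0.942, replicate 2 at 0.842 to 0.854 and replicate 3 at 0.798 to 0.804. Replicates 1 and 3 of day 7 differed by over 2-fold in 61.5% of gene models and replicates 1 and 2 in 48.2%, against 22.0% to 27.0% for pairs of day 14 libraries. Replicate 1 was thus the nearest of the day 7 libraries to the hearts before storage.

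The second week changed a large share of the transcripts measured. Between day 7 and day 14, the test called 10792 of 21900 gene models (49.3%), 5830 higher (26.6%) and 4962 lower (22.7%) at day 14 (edgeR quasi-likelihood test, Benjamini-Hochberg adjusted p under 0.05). The changes were large: 9528 were over 2-fold, 5543 over 4-fold and 2027 over 16-fold. In the fit without both day 7 libraries, 3368 called changes were over 2-fold, 2110 over 4-fold and 912 over 16-fold. The median gene model called higher had a log2 fold change of 2.03 and the median called lower one of -2.08, where the median of all tested was 0.11. Day 7 and day 14 values did not overlap in 5080 of the higher and 3687 of the lower calls, and in 45.7% of all gene models tested. With replicate 1 as the single day 7 library, where a lone value overlaps less often, 74.0% of all tested did not overlap. The p-values rest on the spread among replicates in the joint fit of all 36 libraries. In the 6 GQ libraries alone, 4646 gene models were called. In bulk RNA, fewer cells of a type and less RNA per cell cannot be told apart.

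Calls were more frequent among abundant transcripts, and whether these leaned to rises or falls differed between fits with and without the libraries in doubt. Of 4022 gene models with a mean under 1 CPM over the 6 libraries, 26.4% were called. Of 2584 with a mean of 100 CPM or more, 65.5% were called, 680 higher and 1012 lower. In the fit given next, the class of 100 CPM or more is not the same set of gene models, so its balance describes a different set. Without both day 7 libraries, a fit in which 7.46% of those under 1 CPM were called, 27.2% of those of 100 CPM or more were called, and the balance there turned to 448 higher and 205 lower. With all libraries, between 10 and 100 CPM there were 3436 higher and 2211 lower, and without both day 7 libraries 1103 and 784. Among the 100 most abundant gene models at day 7, 84 fell, against 22.7% of all tested, and among the 100 most abundant at day 14, 66 rose, against 26.6% of all tested. Since each list was picked by its level on the day it is high, these directions are in part set by that choice and are a description. The counts were 30 and 42 without both day 7 libraries. With all libraries 26 were in both lists. The most abundant at day 7 took 15.1% of gene reads in day 7 replicate 1, 29.6% in replicate 2 and 31.3% in replicate 3, and 8.62%, 11.1% and 7.44% in day 14 replicates 1, 2 and 3. The same 100 took 10.2% to 11.8% at day 0.

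The balance of the transcript pool moved from the gene models called lower to those called higher. Gene models called higher took 18.9%, 7.61% and 5.99% of gene reads in day 7 replicates 1, 2 and 3, and 52.8%, 41.8% and 53.8% in day 14 replicates 1, 2 and 3. In the day 0 libraries they took 24.8% to 27.0%, so that replicates 2 and 3 of day 7 lay well below both other days and replicate 1 lay closer to day 0. Gene models called lower took 40.0%, 65.5% and 66.3% in day 7 replicates 1, 2 and 3, 14.1%, 20.2% and 14.1% at day 14, and 31.4% to 34.7% at day 0. These shares describe sets chosen from the same libraries and carry no test.

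The calls spread evenly over the numbers that the IDs carry after the prefix. In the gene models of ID numbers 1 to 17, between 46.2% (number 7) and 51.3% (number 3) were called. Falls ranged from 20.1% of the tested gene models of number 16 to 24.7% of number 6, and rises from 23.3% of number 7 to 29.2% of number 15. The shares called ran from 14.3% to 18.0% without both day 7 libraries.

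How far the calls rest on the 3 libraries in doubt was read from fits without them. Without day 14 replicate 1, 8982 gene models were called. Of the 10792 calls, 18.6% were lost, and 39 changed sign. Leaving out day 14 replicate 3, which had GQ markers, lost 17.3%, and leaving out replicate 2 lost 10.4%. The loss without the library of crossed markers was thus close to that without another day 14 library.

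Day 7 replicates 2 and 3 carried most of the calls. Without both, 3631 gene models were called, 1796 higher and 1835 lower, and 70.0% of the 10792 calls were lost. Across the 10792, the median absolute change on the log2 scale fell from 2.05 to 1.35, and 50.7% of the calls had a change more than 1.5 times smaller on the log2 scale. Direction was mostly kept, with 465 calls (4.31%) changing sign. That fit leaves a single day 7 library, whose spread is taken from the remaining groups. With replicate 2 as the single day 7 library, however, 10103 were called and 21.0% of the calls were lost, and with replicate 3 as the single library 11509 were called and 20.8% were lost. The median absolute change of the 10792 was then 2.32 and 2.65. Both of these fits were chosen after seeing the data. Replicate 1 alone therefore gave smaller changes and fewer calls than either of the other day 7 libraries alone. Whether the make-up of replicates 2 and 3 set these changes was not tested. Replicate 1 also stood apart by another measure. The library weight that limma voom gave it was 0.091, the lowest of the 36 libraries. The weights of replicates 2 and 3 were 1.70 and 0.156. Without all 3 libraries in doubt, 2072 were called.

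**Figure D2:**
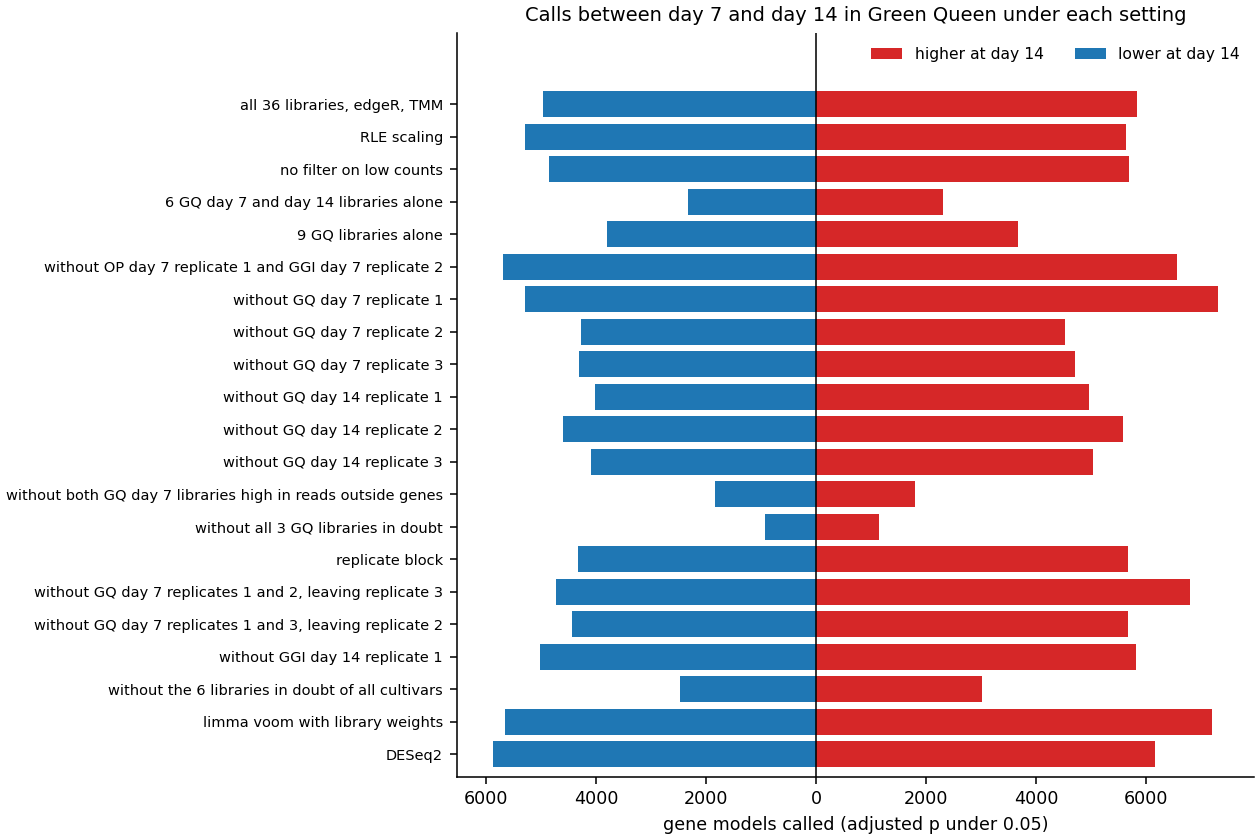
Number of gene models called between day 7 and day 14 in GQ, higher at day 14 to the right and lower to the left, one bar pair per setting. The count is 10792 with all libraries, 3631 without both day 7 libraries high in reads outside genes and 2072 without all 3 GQ libraries in doubt.

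A set of 1824 gene models, 1080 higher and 744 lower, was called in the same direction in 4 fits: with all libraries, without day 14 replicate 1, without both day 7 libraries and without all 3. They were 16.9% of the calls, and 4.93% (higher) and 3.40% (lower) of the gene models tested. Relative to the mean of the day 0 libraries, the median of the 1080 was at -0.67, -1.30 and -1.66 in day 7 replicates 1, 2 and 3 and at 1.94, 1.46 and 1.98 in day 14 replicates 1, 2 and 3 (log2 CPM). The median of the 744 was at 0.45, 0.90 and 0.64 at day 7 and at -2.14, -1.62 and -2.25 at day 14. Over all gene models tested, the median was at -0.00, -0.24 and -0.41 in day 7 replicates 1, 2 and 3. In these sets each of the 3 day 7 libraries lay on the far side of day 0 from the day 14 libraries. That position is in part set by choosing the sets on the same days. On falling gene models chosen without GQ libraries, described below, day 7 replicates 1, 2 and 3 were at -0.06, 0.36 and -0.12. Replicates 1 and 3 were on the side of day 14, but replicate 3 lay above its median of all gene models, -0.41.

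The gene models whose call was lost without both day 7 libraries numbered 7550, of which 4120 were higher and 3430 lower at day 14. The median of the 4120 was at -0.24 in day 7 replicate 1, near day 0, but at -1.25 in replicate 2 and -1.72 in replicate 3, and it reached 0.71, 0.42 and 0.66 at day 14. The median of the 3430 was at 0.22, 1.51 and 1.66 in day 7 replicates 1, 2 and 3 and at -0.62, -0.37 and -0.57 at day 14. For these gene models the departure of replicates 2 and 3 from day 0 was larger than that of any day 14 library. The 3430 took 24.5% of gene reads in day 7 replicate 1, 45.7% in replicate 2 and 50.9% in replicate 3, against 20.8% to 21.8% at day 0. All these medians describe sets chosen on the same values.

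**Figure D3:**
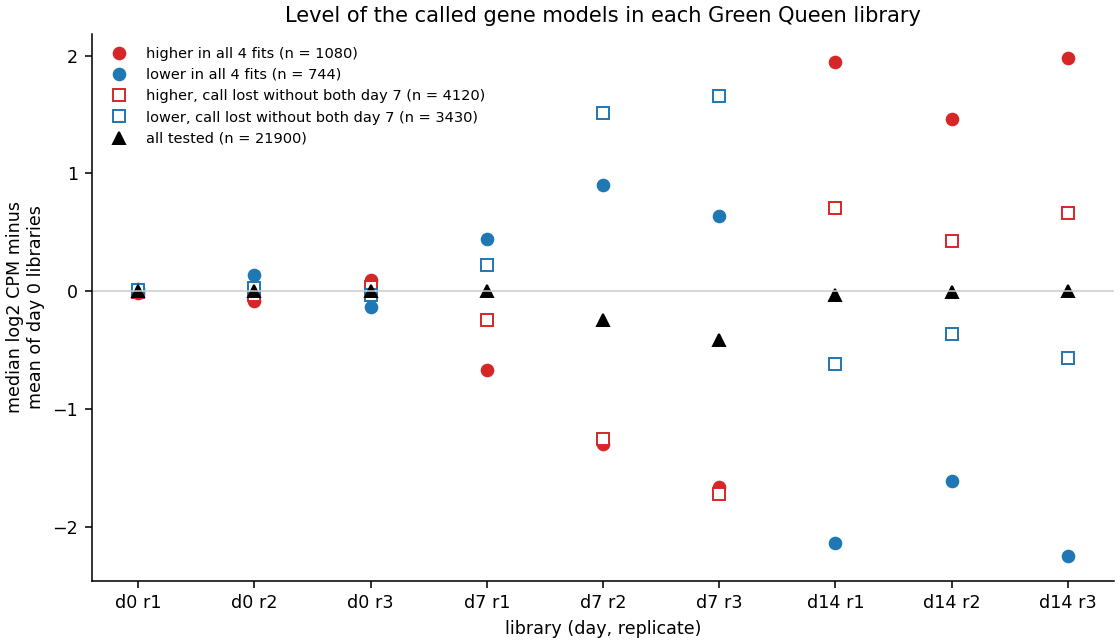
Median log2 CPM of sets of gene models in each GQ library, relative to the mean of the day 0 libraries; filled circles are the sets called in all 4 fits, open squares the sets whose call was lost without both day 7 libraries, and triangles all gene models tested. The open squares of day 7 replicate 1 lie at -0.24 and 0.22, near day 0, and those of replicates 2 and 3 between 1.25 and 1.72 from it.

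The rise with the widest gap between the days among gene models called in all 4 fits was that of V2_01g006170.1.01. Its level was 0.512, 1.14 and 0.815 CPM in day 7 replicates 1, 2 and 3, from 24, 24 and 15 reads, and 4850, 584 and 5217 CPM in day 14 replicates 1, 2 and 3. All day 14 libraries lay far above all day 7 libraries, with replicate 2 the lowest of them. The mean rose from 0.821 ± 0.312 to 3550 ± 2575 CPM (SD, n = 3 each), a ratio of means of 4323 (edgeR, log2 change 12.10 ± 1.74 SE, adjusted p = 8.14e-06). At day 0, V2_01g006170.1.01 stood at 1.03, 0.689 and 28.6 CPM, so 1 of the 3 was above every day 7 library. The first week, which shares the day 7 libraries, gave V2_01g006170.1.01 a log2 change of -3.65 (edgeR, adjusted p = 0.027). In OP it went from 12.8 ± 8.55 to 266 ± 138 CPM (edgeR, adjusted p = 0.0107) and in GGI from 243 ± 92.1 to 3415 ± 2612 CPM (adjusted p = 0.0202; SD, n = 3 each). In IS it was at 208 ± 182 CPM at day 7 and 268 ± 217 CPM at day 14 (edgeR, adjusted p = 0.907; SD, n = 3 each). Since V2_01g006170.1.01 was picked for its gap between the GQ days, a larger change in GQ is in part set by that choice. The rise in GQ was larger than the mean rise of the other cultivars by 9.25 ± 1.63 on the log2 scale (SE; edgeR, adjusted p = 0.00135). Without both day 7 libraries this difference was 9.89 ± 2.87 and was not called (edgeR, adjusted p = 0.242).

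The fall with the widest gap was that of V2_11g008890.1.01. Its level was 1058, 13980 and 10818 CPM in day 7 replicates 1, 2 and 3, and 0.523, 0.312 and 0.192 CPM in day 14 replicates 1, 2 and 3, from 21, 15 and 8 reads. The days did not overlap, and replicates 2 and 3 of day 7 were more than 10 times as high as replicate 1. The mean fell from 8618 ± 6736 to 0.342 ± 0.167 CPM (SD, n = 3 each; edgeR, log2 change -14.61 ± 2.35 SE, adjusted p = 2.5e-05). At day 0, V2_11g008890.1.01 stood at 373, 1207 and 32.5 CPM, a range that holds day 7 replicate 1, and the first week gave a log2 change of 4.00 (edgeR, adjusted p = 0.0446). Without both day 7 libraries it still fell (edgeR, log2 change -11.61 ± 2.23 SE, adjusted p = 0.00249). At day 14 it was also low in the other cultivars, from 0.709 ± 1.14 CPM in IS to 5.64 ± 8.90 CPM in GGI (SD, n = 3 each). The fall was called in OP (edgeR, adjusted p = 0.0133) and GGI (adjusted p = 0.0203) and not in IS (adjusted p = 0.2), where the level at day 7 was 8.18 ± 9.92 CPM. V2_11g008890.1.01 was picked for its gap between the GQ days, so a larger fall in GQ is in part set by that choice. The fall in GQ was larger than the mean fall of the others, by -9.86 ± 2.09 on the log2 scale (SE; edgeR, adjusted p = 0.00354), and by -6.83 ± 2.07 without both day 7 libraries, where it was not called (adjusted p = 0.252).

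Among rises that were called with all libraries and not without day 14 replicate 1, the largest on mean CPM was that of V2_03g013680.1.01. It had 0.448, 0 and 4.73 CPM in day 7 replicates 1, 2 and 3, and 663, 2.66 and 28.4 CPM in day 14 replicates 1, 2 and 3. The library with crossed markers was the highest by far, and day 14 replicate 2 lay below day 7 replicate 3. The mean went from 1.73 ± 2.61 to 231 ± 374 CPM (SD, n = 3 each; edgeR, log2 change 7.12 ± 1.68 SE, adjusted p = 0.00113). Without day 14 replicate 1 the log2 change was 3.20 ± 1.30 and missed the threshold (SE; edgeR, adjusted p = 0.0513). Its call was also lost in the 6 GQ libraries alone (edgeR, adjusted p = 0.0534), under limma voom (adjusted p = 0.0718), with day 7 replicate 3 as the single day 7 library (edgeR, adjusted p = 0.0568) and without all 3 libraries in doubt (adjusted p = 0.11). At day 14, V2_03g013680.1.01 had 29.1, 770 and 104 CPM in the libraries labelled GGI replicates 1, 2 and 3. The lowest, replicate 1, is the GGI library with crossed markers. Its rise was called in OP (edgeR, log2 change 5.28, adjusted p = 0.0118) and GGI (6.12, adjusted p = 0.00567) and not in IS (0.61, adjusted p = 0.85). The first week in GQ, which shares the day 7 libraries, gave V2_03g013680.1.01 a log2 change of 6.02 (edgeR, adjusted p = 0.0262), from 3 reads in all at day 0. Its change in GQ was not called as different from the mean of the others (edgeR, difference 3.12 ± 1.57 on the log2 scale (SE), adjusted p = 0.158).

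Among falls that were called with all libraries and not without both day 7 libraries, the largest on mean CPM was that of V2_11g007810.1.01. It had 0.128, 1085 and 48.5 CPM in day 7 replicates 1, 2 and 3, and 0.647, 0.104 and 0.288 CPM in day 14 replicates 1, 2 and 3. Replicate 1 lay within the range of day 14, and replicate 2 held most of the day 7 reads, 22921 of 23820. The mean went from 378 ± 613 to 0.346 ± 0.276 CPM (SD, n = 3 each; edgeR, log2 change -10.10 ± 2.48 SE, adjusted p = 0.00165). Without both day 7 libraries the log2 change was 1.37 ± 2.85 (SE; edgeR, adjusted p = 0.786), so the fall rests on them. It was still called without replicate 2 alone (edgeR, log2 change -6.16, adjusted p = 0.0201). At day 0, V2_11g007810.1.01 stood at 7.89, 28.7 and 4.71 CPM, above day 7 replicate 1 and below replicates 2 and 3. It also fell in GGI (edgeR, log2 change -6.53, adjusted p = 0.0236), and was not called in OP (-3.94, adjusted p = 0.154) or IS (-0.31, adjusted p = 0.959). In GGI, day 7 replicate 2, also high in reads outside gene models, had 206 CPM, and replicates 1 and 3 had 0.455 and 21.3 CPM.

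**Figure D4:**
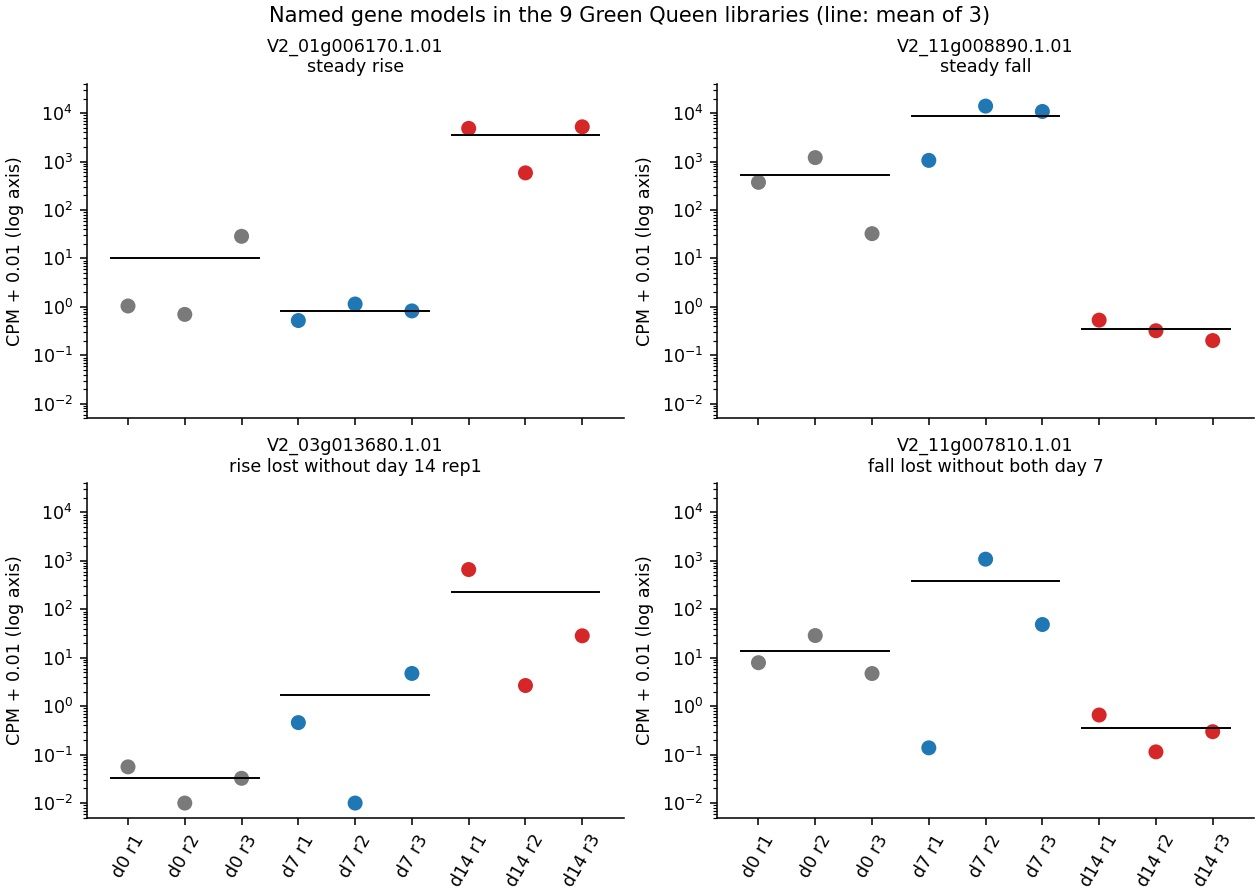
CPM of the 4 named gene models in each GQ library, plotted as CPM + 0.01 on a log axis; gray, blue and red points are days 0, 7 and 14, and lines are means of 3 libraries. The upper gene models separate day 7 from day 14 in every library, while the lower ones are highest in day 14 replicate 1 at 663 CPM and in day 7 replicate 2 at 1085 CPM.

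Some gene models went from off to on or the reverse. Of those tested, 102 were under 0.1 CPM in all 3 day 7 libraries and over 1 CPM in all 3 day 14 libraries, and 49 the reverse. By this choice their days differ by over 10-fold, so their calls are no further result. The 102 reached a median of 13.1 CPM at day 14, and 59 of them were over 10 CPM. Of the 102, 63 had 0 reads in all day 7 libraries, 56 were off in all day 0 libraries too, and 50 were called in all 4 fits. The 49 had a median of 8.92 CPM at day 7, 27 of them were over 1 CPM in all day 0 libraries, and 33 were called in all 4 fits. Without both day 7 libraries, where fewer values have to pass, 169 were switched on and 78 off, and without all 3 libraries in doubt 208 and 90. By the same cut-offs 88 were switched on and 21 off in OP, 11 on and 1 off in IS, and 27 on and 25 off in GGI, of 21900 tested. In reads the cut-offs differed with depth. A level of 3 reads was 0.827 CPM in OP day 7 replicate 1, where off thus meant 0 reads. It was 0.142 and 0.163 CPM in GQ day 7 replicates 2 and 3. The counts and overlaps are therefore not on an equal footing between cultivars. Of the GQ set switched on, 27 were in that of OP (26.5% of the GQ and 30.7% of the OP set), 3 in that of IS (2.94% and 27.3%) and 9 in that of GGI (8.82% and 33.3%).

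The library labelled GQ day 14 replicate 1 also held transcripts that the other GQ libraries of these days lacked. In it, 52 gene models were over 1 CPM that were under 0.1 CPM in the other 5 GQ libraries of days 7 and 14. The same count was 4 for day 14 replicate 2 and 7 for replicate 3. Of the 52, 26 were over 1 CPM in both GGI day 14 replicates 2 and 3. Of all 21900 tested, 16457 were over 1 CPM in that replicate 2 and 17212 in that replicate 3. The share among all gene models under 0.1 CPM in the other 5 GQ libraries was not counted. Of the 99 markers, 26 were called between day 7 and day 14 in GQ with day 14 replicate 1, against 49.3% of all tested. Without it 12 were called, when calls over all gene models also went down, from 10792 to 8982.

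The same interval in the other cultivars was measured in other libraries, of which GGI day 14 replicate 1 had crossed markers, and OP day 7 replicate 1 (71.0%, with 5.76 M reads in gene models) and GGI day 7 replicate 2 (33.5%) were high in reads outside gene models. Between day 7 and day 14, 6061 gene models were called in OP (27.7%), 707 in IS (3.23%) and 6217 in GGI (28.4%). Of the 5830 gene models that rose in GQ, 38.0% were also called higher in OP, 5.42% in IS and 37.4% in GGI, where 14.5%, 1.87% and 14.7% of all tested were. Of the 4962 that fell in GQ, 40.6%, 4.31% and 35.0% were called lower in OP, IS and GGI, where 13.2%, 1.36% and 13.7% of all tested were. Without GGI day 14 replicate 1, the GGI shares were 24.8% and 20.6%, beside 8.65% and 7.06% of all tested in that fit.

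Among gene models called in all 4 fits these shares were higher. Those gene models also had larger changes in GQ, with medians of 3.09 and -2.60 against 2.03 and -2.08 among all calls (log2 scale). All cultivars share 1 fit and the spread of each gene model, so calls in GQ and in the others are not independent. Of the 1080 that rose, 66.2% were called higher in OP, 14.4% in IS and 70.2% in GGI. Of the 744 that fell, 68.3%, 13.6% and 70.6% were called lower. Without GGI day 14 replicate 1, the GGI shares were 53.3% and 48.8%. In the mean of the other cultivars, 919 of the 1080 were called higher and 665 of the 744 lower, with medians of 1.37 and -1.36 on the log2 scale, where 46.3% of all tested were called, 22.5% higher and 23.8% lower. Among calls lost without both day 7 libraries, 44.5% of the rises and 46.6% of the falls were called in the mean of the others. In direction, 89.1% of all GQ rises and 86.7% of the falls had the sign of the others' mean, where 48.7% and 51.2% of all tested had a positive and a negative mean.

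The GQ libraries were also placed on gene models chosen without any library labelled GQ. In a fit of the 27 libraries of the other cultivars, 2601 gene models rose and 3821 fell by over 2-fold in the mean of the second week. On the rising set the median of the GQ libraries, relative to their day 0 mean, was at -0.04, -0.45 and -0.36 in day 7 replicates 1, 2 and 3 and at 2.34, 1.69 and 2.18 in day 14 replicates 1, 2 and 3 (log2 CPM). On the falling set it was at -0.06, 0.36 and -0.12 at day 7 and at -2.07, -1.37 and -1.93 at day 14. On both sets each day 7 library lay within 0.5 of day 0 and each day 14 library beyond 1, with day 14 replicate 2 the least changed. The rising-set values of day 7 replicates 2 and 3 were near the median of all gene models in those libraries, -0.24 and -0.41. Their falling-set values, 0.36 and -0.12, lay above that median. Without GGI day 14 replicate 1, which had GQ markers, the fit of 26 libraries gave 2474 rising and 3646 falling gene models. On these the day 14 libraries stood at 2.45, 1.72 and 2.17 and at -2.14, -1.40 and -1.93, and this fit was chosen after seeing the data.

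Whether the change in GQ differed from the mean change of OP, IS and GGI was tested for each gene model. With all libraries 4026 gene models were called, 18.4% of those tested, 2105 (9.61%) with a higher and 1921 (8.77%) with a lower change in GQ (edgeR, adjusted p under 0.05). Of these, 2555 changed in the same direction as the others' mean and by more in GQ, 49 in the same direction and by less, and 1422 in the opposite direction in fitted value. The count was 2147 without day 14 replicate 1, and 10 without both day 7 libraries, where 2126 had an unadjusted p under 0.05, against 7573 with all libraries. With day 7 replicate 3 or 2 as the single day 7 library it was 8762 or 5681. Leaving out 1 library also moved it, to 8922, 1804 and 1389 without day 7 replicates 1, 2 and 3 and to 2290 without day 14 replicate 3, and DESeq2 gave 6324. The median absolute difference of the 4026 went from 1.69 to 0.77 on the log2 scale without both day 7 libraries. Of the 4026, 10 were still called without both day 7 libraries and 2105 without day 14 replicate 1.

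**Figure D5:**
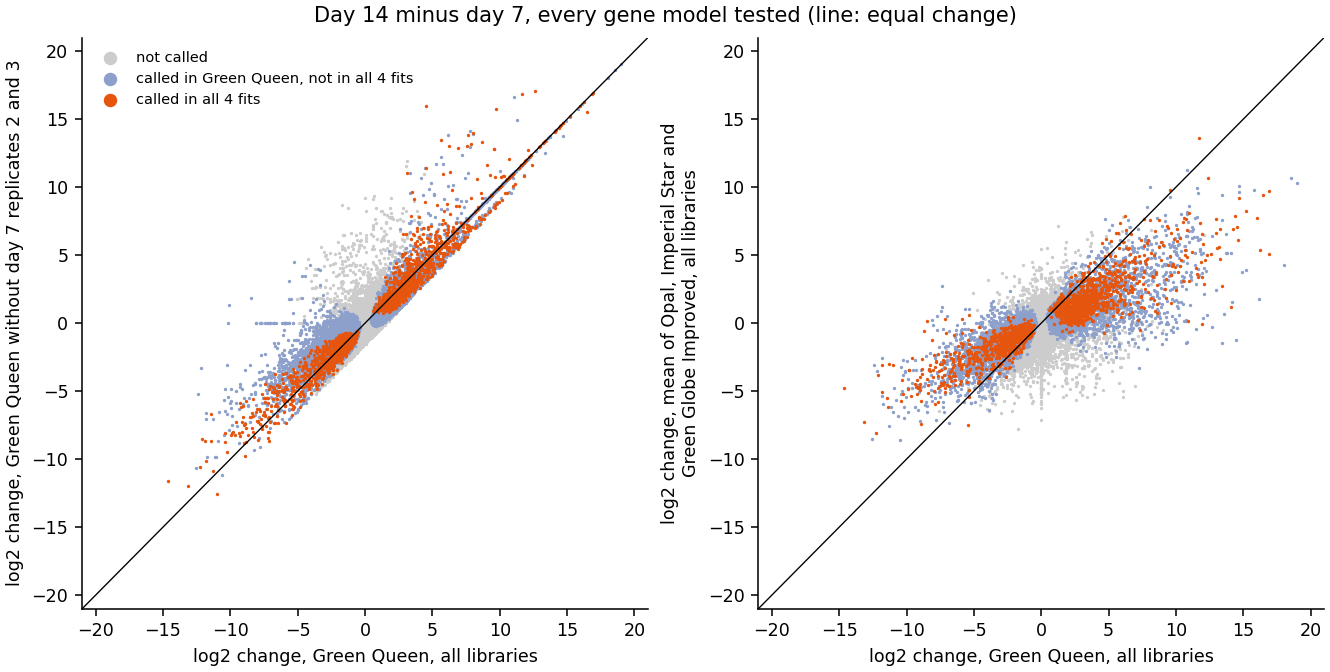
Log2 change from day 7 to day 14 of each gene model tested in GQ (horizontal) against the change in GQ without day 7 replicates 2 and 3 (left) and the mean change in the other cultivars (right); the line marks equal change. Gene models called in all 4 fits are in orange; in the others' mean the 1080 that rose have a median of 1.37 and the 744 that fell one of -1.36.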

How the data were processed

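The authors deposited 1 table per library with read counts for 28632 gene models, as whole numbers with no normalization. The submitters' processing notes list cutadapt and STAR. The counting tool, genome build, annotation and strand setting were not given in the sources used here, so counts of near-identical or overlapping gene models are uncertain. Summary rows for reads not assigned to 1 gene model (13.9% to 85.2% of reads per library) entered neither library sizes nor tests. Groups and replicate numbers came from the titles. Depth was 5.76 to 54.5 M reads in gene models over 36 libraries. Every GQ replicate pair differed by more than counting noise (lowest chi-square per degree of freedom 55.1).

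Counts were fitted with edgeR 4.0.16 (limma 3.58.1, R 4.3.3) in 1 model of all 36 libraries with a mean per cultivar and day: filterByExpr (minimum count 10, minimum total 15; 21900 kept), TMM, robust glmQLFit and glmQLFTest, Benjamini-Hochberg over all gene models tested, called at 0.05. The common biological coefficient of variation was 0.506. CPM have TMM scaling, except for cultivar markers; log2 CPM used a prior count of 2. SE was taken as the log2 change (its size) over the root of the F statistic. Counts were simulated for this comparison (21722 gene models, no library standing apart), with 100 gene models changed per fold and all others level between the GQ days. Of the changes, 11 of 100 of 2-fold and 54 of 100 of 4-fold were recovered, and 2 of 67 calls were of unchanged gene models. Far fewer gene models were changed than were called in the data, so these shares need not hold there. Named gene models are the rise and the fall called in all 4 fits with the largest gap between days (log2 of CPM + 1), the rise lost without day 14 replicate 1 and the fall lost without both day 7 libraries with the largest mean change. Alternatives were RLE scaling, DESeq2 1.42.0, limma voom with library weights, no filter, fewer libraries and a replicate block. The comparison, sets and rules were chosen with earlier results of these data known.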

Additional observations from a re-analysis of the deposited data

Results flagged for a closer look

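The named gene models were picked by their changes in GQ, so a larger change there is in part set by that choice. The second-week change in GQ differed from the mean of the other cultivars in 4026 gene models by the test of that difference. Among the named gene models it differed by 9.25 for V2_01g006170.1.01, by -9.86 for V2_11g008890.1.01 and by -6.51 for V2_11g007810.1.01 on the log2 scale (edgeR, adjusted p = 0.00135, 0.00354 and 0.0497), and without both day 7 libraries high in reads outside genes by 9.89, -6.83 and 4.99, with none of the 3 called (adjusted p = 0.242, 0.252 and 0.702). Without day 14 replicate 1 the difference of V2_11g007810.1.01 was -7.30 and not called (edgeR, adjusted p = 0.0955), while the others stayed called. Reads outside gene models, which no comparison used, made up 14.5%, 31.6% and 30.1% of the reads in GQ day 7 replicates 1, 2 and 3, above the highest GQ day 0 library at 11.5%.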

How the results depend on the processing

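The count of gene models called in GQ stayed within 1.5 times of 10792 under RLE scaling, DESeq2, limma voom, no filter and the 9 GQ libraries alone, and ran from 8783 to 12584 with 1 GQ library left out. It was 4646 in the 6 GQ libraries alone, 3631 without both day 7 libraries high in reads outside genes, 2072 without all 3 in doubt and, chosen after seeing the data, 5493 without the 6 libraries in doubt of all cultivars. The count of gene models whose change differed between GQ and the other cultivars, 4026, ran from 1389 to 8922 with 1 GQ library left out: 8922, 1804 and 1389 without day 7 replicates 1, 2 and 3, and 2147 and 2290 without day 14 replicates 1 and 3. It was 7329 without OP day 7 replicate 1 and GGI day 7 replicate 2, 10 without both GQ day 7 libraries, 4 without all 3 in doubt (1745 at an unadjusted p under 0.05), 460 without the 6 in doubt, 8762 with day 7 replicate 3 as the single day 7 library (both chosen after seeing the data), 9918 with limma voom and 6324 with DESeq2. With cut-offs of 0.05 and 2 CPM, 52 gene models were switched on and 21 off, and, chosen after seeing the data, 169 and 78 without both day 7 libraries and 208 and 90 without all 3 in doubt. V2_11g007810.1.01 turned sign in 3 settings, at 1.37 without both day 7 libraries, 0.54 without all 3 and 0.55 without the 6 in doubt. V2_01g006170.1.01 and V2_11g008890.1.01 kept their calls in all 20 settings. Calls without day 14 replicate 1, without both day 7 libraries and without all 3 in doubt were required when these gene models were picked. The mean of OP, IS and GGI gave 10135 calls and stayed within 1.5 times in the settings run. For pairing, deviations of same-numbered GQ libraries of days 7 and 14 correlated at -0.01, 0.03 and -0.05. These values cannot show whether heads with the same number came from the same plants. With the replicate number as a block the counts were 10004 and 3263. The causes were not tested. The difference between cultivars could not be fitted in the GQ libraries alone. No setting varied the depth.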
